A study of Homo sapiens with 8 samples.

Results

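The 10 genes described here encode tetraspanins of vesicle membranes (CD9, CD63, CD81, CD151 and TSPAN8) and proteins that form or release exosomes (TSG101, PDCD6IP, SDCBP, RAB27A and RAB27B). They were chosen by symbol as 10 of the 58735 genes in the deposited gene table, by a rule that uses no measured value, although earlier results of these data were known when the list was drawn up. The study gave exosomes of M2-polarised macrophages (M2-exo), from the monocytic leukaemia line THP-1, to Caco-2 cells, a human colorectal carcinoma line, and profiled their mRNA. There were 3 libraries of M2-exo treated Caco-2 cells and 3 of Caco-2 cells that received PBS only and are labelled untreated. All 6 libraries share the cell line, a wild type genotype label, a cell type label of stem cells, and culture in DMEM with fetal bovine serum. The labels give neither dose nor duration of exposure and do not say whether replicates were separate cultures. A p-value here therefore reflects the spread of these libraries alone, and that spread may be technical.

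Exosomes are small vesicles that form when the membrane of a late endosome buds inward, giving a multivesicular body, which then fuses with the cell surface. Tetraspanins cross the membrane several times and gather partner proteins into patches, and CD9, CD63 and CD81 are the usual surface markers of exosomes. The ESCRT complexes and syntenin sort cargo and shape the buds, and the RAB27 GTPases bring multivesicular bodies to the plasma membrane. Intestinal epithelial cells are known to release exosomes from both their apical and basolateral faces.

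Sequences upstream of 5 of the genes are shown because the levels of these genes span the whole range measured, from CD63, the highest, to RAB27B, the lowest. Each is the 150 bases before a RefSeq transcript start (GRCh38.p14), 5′ to 3′ on the strand of the gene. Where RefSeq lists several starts, the one nearest the 5′ end in the gene table was taken. Capitals mark CCGGAAGT, a core motif of ETS-family transcription factors. The windows are chr12:55729674-55729823 (minus strand) for CD63, chr11:18526943-18527092 (minus) for TSG101, chr3:33798480-33798629 (plus) for PDCD6IP, chr15:55319124-55319273 (minus) for RAB27A and chr18:54717707-54717856 (plus) for RAB27B.
CD63: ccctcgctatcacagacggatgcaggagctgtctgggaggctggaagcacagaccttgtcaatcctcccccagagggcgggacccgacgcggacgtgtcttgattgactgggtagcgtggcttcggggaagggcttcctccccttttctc
TSG101: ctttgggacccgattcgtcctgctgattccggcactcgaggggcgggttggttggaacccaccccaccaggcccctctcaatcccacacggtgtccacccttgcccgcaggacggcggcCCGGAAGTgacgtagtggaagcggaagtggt
PDCD6IP: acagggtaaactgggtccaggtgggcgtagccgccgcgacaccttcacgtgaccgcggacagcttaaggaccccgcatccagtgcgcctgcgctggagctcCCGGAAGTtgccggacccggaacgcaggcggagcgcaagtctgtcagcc
RAB27A: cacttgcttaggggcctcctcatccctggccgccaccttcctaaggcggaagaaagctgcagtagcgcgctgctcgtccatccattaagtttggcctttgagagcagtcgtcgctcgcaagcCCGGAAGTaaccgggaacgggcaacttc
RAB27B: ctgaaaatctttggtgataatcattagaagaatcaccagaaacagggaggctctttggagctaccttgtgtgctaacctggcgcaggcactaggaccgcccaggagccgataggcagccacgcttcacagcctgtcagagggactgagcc

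A promoter entry was found for 7 of the 10 genes: these 5, CD9 and TSPAN8. In the 250 bases before the start, searched on both strands (the other strand reads ACTTCCGG), the motif was present in TSG101, PDCD6IP and RAB27A and not in the other 4. It began 31 bases before the start in TSG101, 49 in PDCD6IP and 28 in RAB27A. It was chosen after the windows had been seen, and 3.394% of 34943 RefSeq windows of the same length hold it. The GC box GGGCGG was in 5 of the 7 windows, against 42.55% of all windows, and overlapped none of these matches. TATAAA was in none of the 7, against 10.75% of all windows. The windows of TSG101 and RAB27A had the same G and C content, 58.8%. For TSPAN8 the nearest RefSeq start lay 283899 bases from the 5′ end given in the gene table, so its window may not belong to the transcript counted. A match is a run of letters and not a measured binding site.

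The gene table gave 15608937 to 18324599 counts per library. The first principal component of the 6 libraries, with 50.1% of the variance, set untreated libraries 1 and 3 at its opposite ends. Mitochondrial genes held 4.16% of counts in untreated library 1 and 7.01% to 8.11% in the other 5. The Caco-2 label was compared with its markers: EPCAM averaged 334 FPKM and KRT8 averaged 713 FPKM, whereas KRT20 had 0 to 5 counts and LGALS4 had 1 to 7. Summed epithelial marker levels were 2102 to 2725 FPKM in M2-exo treated cells and 2385 to 2792 FPKM in untreated cells. Of 12 macrophage markers, CD68, FCGR3A, TYROBP and MS4A7 were at 0 counts in all 6 libraries, and PTPRC, CD163 and MRC1 had no more than 3 counts and ITGAM had 0 to 6. The other 4 were detected: CD14 had 94 to 158 counts (mean 3.68 FPKM), CSF1R 42 to 98, LYZ 27 to 84 and AIF1 23 to 53. The macrophage markers summed to 5.81 to 9.04 FPKM in treated cells and 7.80 to 9.77 FPKM in untreated cells. Of 10 fibroblast markers, POSTN and FAP were at 0 counts, and COL1A2, DCN and THY1 had no more than 2. The others were detected: PDGFRA had 523 to 955 counts, COL1A1 315 to 635, PDGFRB 35 to 117, LUM 34 to 55 and COL3A1 23 to 54. The fibroblast list summed to 7.96 to 10.3 FPKM in treated cells and 7.79 to 9.06 FPKM in untreated cells.

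Levels were compared between genes in FPKM, the deposited unit that divides counts by gene length and depth. CD63, which cycles through late endosomes and lysosomes, was the highest of the 10 at a mean of 187 FPKM over the 6 libraries and ranked 125 of 12533 protein-coding genes tested. It averaged 171 ± 23.6 FPKM in M2-exo treated cells and 204 ± 25.2 FPKM in untreated cells (SD, n = 3 each). CD9, a tetraspanin of the cell surface, followed at 63.6 FPKM, then TSPAN8, a tetraspanin of gut epithelium, at 60.1 FPKM. CD151, which binds laminin-binding integrins, averaged 45.6 FPKM and CD81, a widely expressed surface tetraspanin, averaged 36.8 FPKM. The budding genes lay close together in FPKM: SDCBP at 23.9 FPKM, TSG101 at 22.3 FPKM and PDCD6IP at 21.8 FPKM. Their lengths used for FPKM were 4778, 3839 and 9038 bases in the same order, and PDCD6IP had more counts than TSG101 in every library. RAB27A, at 0.884 FPKM, ranked 10642, and RAB27B, at 0.217 FPKM, ranked 11998 of the same 12533 genes.

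Between neighbours in this order, the ranges over the 6 libraries stayed apart at 3 places. CD63 was above CD9, PDCD6IP was above RAB27A by 24.7-fold in mean level, and RAB27A was above RAB27B. The ranges of all other neighbours overlapped, although CD151 exceeded CD81 in FPKM in 6 of 6 libraries. That order rests on the lengths used, 3938 bases for CD151 and 7394 for CD81. Before division by length, CD81 had more counts than CD151 in every library. CD63 and RAB27B differed 863-fold in mean FPKM. In FPKM, TSG101 and PDCD6IP could not be ordered, since TSG101 was the higher in 3 of 6 libraries. Their FPKM ratio (PDCD6IP over TSG101) ranged from 0.858 to 1.08.

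**Figure D1:**
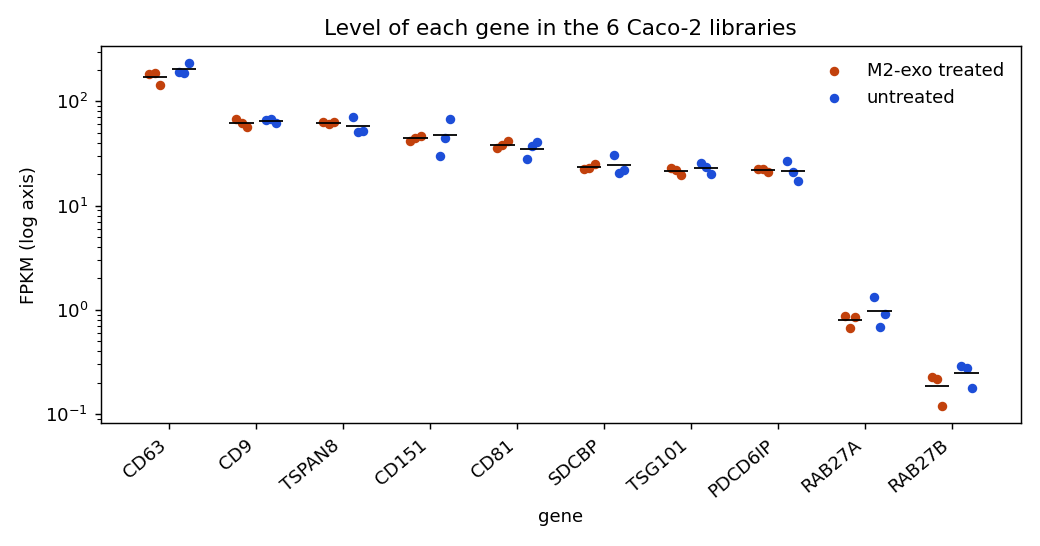
FPKM (log axis) of each gene in the 3 M2-exo treated and 3 untreated libraries, 1 point per library, with a bar at each group mean. The tetraspanins and budding genes lie at 17.2 FPKM or above, and RAB27A and RAB27B lie at or below 1.33 FPKM in every library.

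For the comparison of treated with untreated cells, counts were tested with edgeR's quasi-likelihood test over all 15084 genes that passed the filter on low counts. All 10 genes passed that filter, and their values per library are given as TMM-scaled CPM, counts brought to a common library size. None of the 10 was called at an adjusted p of 0.05, and neither was any other gene: the percent called was 0, with the smallest adjusted p at 0.9999, which was also the adjusted p of each of the 10. An unadjusted p under 0.05 was found for 111 of the 15084 genes by edgeR and for 104 of the same 15084 by limma-voom. DESeq2, which tested 29413 genes, gave 124, and each tool gave 0 of the 10. The estimate was below 0 for 7 of the 10 and above 0 for 3, with a median log2 fold change of -0.09, against -0.01 over all genes tested. Of the 15084, 7986 had an estimate below 0.

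**Figure D2:**
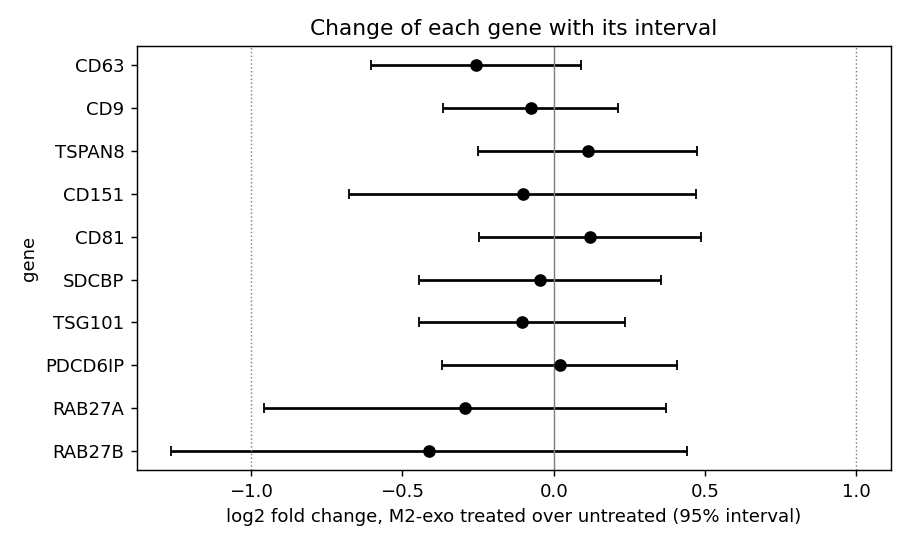
Log2 fold change of each gene, M2-exo treated over untreated (x axis), with its 95% interval from edgeR; dotted lines mark a 2-fold change. Every interval spans 0, and only that of RAB27B crosses a dotted line.

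CD63 (ENSG00000135404, GRCh38, 12:55725323-55729707, minus strand) had 488.9, 489.3 and 382.6 CPM in M2-exo treated cells, against 512.7, 492.5 and 619.6 CPM in untreated cells. It was the 1 gene of the 10 whose groups did not overlap, and the highest treated library (489.3 CPM) lay just below the lowest untreated library (492.5 CPM). Treated libraries were all lower than untreated ones for 347 genes (2.3%) and all higher for 249 (1.65%). The means were 454 ± 61.5 CPM in treated and 542 ± 68.3 CPM in untreated cells (SD, n = 3 each). The edgeR log2 fold change was -0.26 (SE 0.15, 95% interval -0.60 to 0.09, unadjusted p = 0.130, adjusted p = 0.9999), and it was -0.13 without treated library 3 and also without untreated library 3. An antisense gene, AC009779.2, overlaps CD63 and had 127, 155 and 141 counts in treated libraries against 76, 105 and 161 in untreated ones, while CD63 had 6864 counts or more in each library. No source used here states the strand setting of the counting, so reads of overlapping genes cannot be told apart.

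CD9 (ENSG00000010278, 12:6199715-6238271, plus strand), which acts in membrane fusion and cell adhesion, had 283, 261 and 236 CPM in treated cells, against 279, 281 and 263 CPM in untreated cells. The groups overlapped, with treated library 1 the highest of the 6 and treated library 3 the lowest. CD9 had a log2 fold change of -0.08 (SE 0.13, interval -0.37 to 0.21), and it was 0.0032 without treated library 3. CD9 had the smallest standard error of the 10.

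CD81 (ENSG00000110651, 11:2376177-2397419, plus strand) had 266, 282 and 310.1 CPM in treated cells, against 209, 277 and 304 CPM in untreated cells. Untreated library 1 was below the other 5 libraries, which ranged from 266 to 310.1 CPM. For CD81 the log2 fold change was 0.12 (SE 0.16, interval -0.25 to 0.49), and without untreated library 1 it was -0.01.

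CD151 (ENSG00000177697, 11:832843-839831, plus strand) had 164, 176 and 184 CPM in treated cells, against 119, 176 and 269 CPM in untreated cells. The treated libraries lay inside the range of the untreated ones, whose highest value was 2.26 times the lowest, against 1.12 times among the treated. CD151 gave a log2 fold change of -0.10 (SE 0.25, interval -0.68 to 0.47), and without untreated library 3 it was 0.26. The SD of CD151 (log2 CPM) among untreated libraries was larger than that of 83.2% of the genes tested, and among treated libraries larger than that of 15.5%. POLR2L, an RNA polymerase subunit gene on the opposite strand, overlaps CD151 and had 311, 495 and 626 counts in treated libraries against 189, 345 and 1137 in untreated ones. Its lowest and highest libraries were the same as those of CD151, and its part in the CD151 counts was not tested.

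TSPAN8 (ENSG00000127324, 12:71125085-71441898, minus strand) had 162, 151 and 162 CPM in treated cells, against 179.8, 129 and 131 CPM in untreated cells. Untreated library 1 was above, and untreated libraries 2 and 3 below, all 3 treated libraries. With all 6 libraries the TSPAN8 log2 fold change was 0.11 (SE 0.16, interval -0.25 to 0.47). Without untreated library 1 it was 0.29, with an unadjusted p of 0.031 and an adjusted p of 0.957 by edgeR. In that fit 370 of 15564 genes had an unadjusted p under 0.05, against 111 of 15084 with all 6 libraries. The TSPAN8 log2 fold change was 0.050 without untreated library 2 and 0.055 without untreated library 3. LGR5, a stem cell receptor gene of the intestinal crypt on the opposite strand, overlaps the span given for TSPAN8. It had 1116, 1014 and 1381 counts in treated libraries and 1257, 988 and 944 in untreated ones, and reads of TSPAN8 and LGR5 where they overlap could not be told apart.

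The family as a whole had 33 genes in the table, of which 24 were tested and 15 had a mean below 1 FPKM. The 5 tetraspanins described above held 50.3%, 51.7% and 48.5% of summed tetraspanin FPKM in treated libraries, against 49.2%, 50.7% and 54.1% in untreated libraries. By mean over the 6 libraries TSPAN13 (202 FPKM) held 26.2% of the sum and CD63 24.1%, and their order was not constant: in untreated library 3 CD63 held 27.7% and TSPAN13 22.1%. Next by mean were CD9 with 8.22% and TSPAN8 with 7.79%. TSPAN15, which guides the sheddase ADAM10, held 6.45%, TSPAN6 held 6.21%, CD151 5.87% and CD81 4.77%. CD37 and CD53, tetraspanins of leukocytes, had 0 to 9 and 0 to 3 counts per library. Among the 19 other tetraspanins tested, 5 had an estimate above 0 and 14 below, with a median of -0.07, and none was called. The smallest unadjusted p of these belonged to TSPAN5, at 29.7 ± 3.02 CPM in treated and 33.7 ± 3.09 CPM in untreated cells, and to TSPAN33, at 1.58 ± 0.292 and 2.02 ± 0.839 CPM in the same order (SD, n = 3 each).

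**Figure D3:**
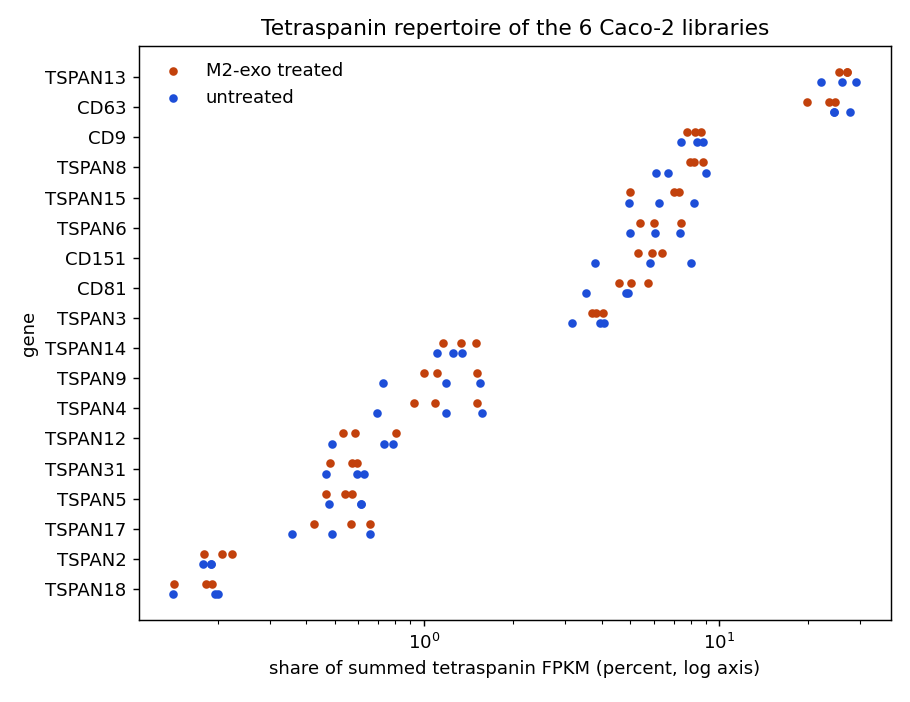
Share of the summed tetraspanin FPKM (percent, log axis) held by each tetraspanin with a mean of at least 1 FPKM, in each library, M2-exo treated above untreated within a row. TSPAN13 and CD63 each hold 19.9% or more in every library, and the treated and untreated libraries overlap for each of these genes.

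TSG101 (ENSG00000074319, 11:18468336-18527232, minus strand), the ESCRT-I subunit that binds ubiquitin-tagged cargo, had 89.0, 85.3 and 75.5 CPM in treated cells, against 100.5, 90.0 and 78.0 CPM in untreated cells. Untreated library 1 was the highest of the 6 and treated library 3 the lowest, and the groups overlapped. The log2 fold change was -0.10 (SE 0.15, interval -0.45 to 0.24), and it was -0.0068 without untreated library 1, -0.02 without treated library 3 and -0.18 without untreated library 3. PDCD6IP (ENSG00000170248, 3:33798352-33869707, plus strand) encodes ALIX, which links ESCRT-I to ESCRT-III and binds syntenin. It had 205, 203 and 191 CPM in treated cells, against 247, 188 and 157 CPM in untreated cells. The treated libraries again lay inside the untreated range. Its log2 fold change was 0.02 (SE 0.17, interval -0.37 to 0.41), and without untreated library 3 it was -0.10. The lncRNA AC112220.2, on the opposite strand at the PDCD6IP promoter, had 98, 99 and 118 counts in treated libraries and 100, 91 and 67 in untreated ones, against 2799 counts or more for PDCD6IP.

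SDCBP (ENSG00000137575, 8:58552924-58582860, plus strand) encodes syntenin, the adaptor between syndecans and ALIX. It had 109, 109.7 and 121 CPM in treated cells, against 148, 97.9 and 105 CPM in untreated cells. Untreated library 1 was the highest and the other 5 ranged from 97.9 to 121 CPM. The log2 fold change was -0.05 (SE 0.18, interval -0.45 to 0.35). Without untreated library 1 it was 0.17, and without treated library 1 it was 0.0014. The ratio of SDCBP to PDCD6IP (FPKM) was 1.07 ± 0.109 in treated and 1.13 ± 0.139 in untreated cells (SD, n = 3 each).

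RAB27A (ENSG00000069974, 15:55202966-55319113, minus strand), which in HeLa cells docks multivesicular bodies at the plasma membrane, had 87, 65 and 87 counts in treated cells, against 119, 69 and 91 counts in untreated cells. Scaled, these were 4.90, 3.73 and 4.85 CPM in treated cells and 7.56, 3.86 and 5.12 CPM in untreated cells. Untreated library 1 was the highest of the 6 and treated library 2 the lowest. The exact Poisson 95% interval of a single library, which covers counting error only, was 50.2 to 82.8 for the 65 counts and 98.6 to 142 for the 119. The log2 fold change was -0.29 (SE 0.29, interval -0.96 to 0.37), and without untreated library 1 it was 0.0079. Genes that overlap RAB27A had counts of similar size: PIGB, on the opposite strand, had 117, 124 and 165 in treated libraries and 157, 149 and 159 in untreated ones. PIGBOS1, listed on the same strand, had 87, 93 and 66 in treated libraries and 98, 66 and 69 in untreated ones. Overlap was taken from whole gene spans, introns included, and whether any reads were shared was not tested. The RAB27A value is uncertain to that extent.

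RAB27B (ENSG00000041353, 18:54717860-54895516, plus strand), the paralog that in HeLa cells acts on the movement of multivesicular bodies, had 30, 28 and 16 counts in treated cells, against 34, 37 and 24 counts in untreated cells. In CPM these were 1.69, 1.61 and 0.892 in treated and 2.16, 2.07 and 1.35 in untreated cells. Treated library 3 was the lowest, and the groups overlapped through untreated library 3. The Poisson 95% interval of that treated library was 9.15 to 26.0 counts and that of untreated library 3 was 15.4 to 35.7 counts. The log2 fold change was -0.41 (SE 0.38, interval -1.26 to 0.44), the widest interval of the 10. The estimate was -0.16 without treated library 3 and -0.07 on log2(FPKM + 1), a scale that understates changes of low genes. RAB27A exceeded RAB27B (FPKM) 3.08- to 7.21-fold in treated and 2.47- to 5.03-fold in untreated libraries.

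Of the 10 intervals, 9 lay inside a 2-fold change in either direction, all but that of RAB27B. Those of CD9, CD81, TSPAN8, TSG101, PDCD6IP and SDCBP lay inside a 1.5-fold change. Changes inside those intervals could not be told from the spread between these libraries. The SD of log2 CPM was larger among untreated than among treated libraries for 7 of the 10 genes, against 71.9% of all genes tested. The median SD of the 10 was 0.12 in treated and 0.30 in untreated libraries, against 0.19 and 0.30 for all genes tested. Untreated libraries 1 and 3 were the lowest and highest untreated libraries for CD81 and CD151, and the highest and lowest for TSG101 and PDCD6IP.

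**Figure D4:**
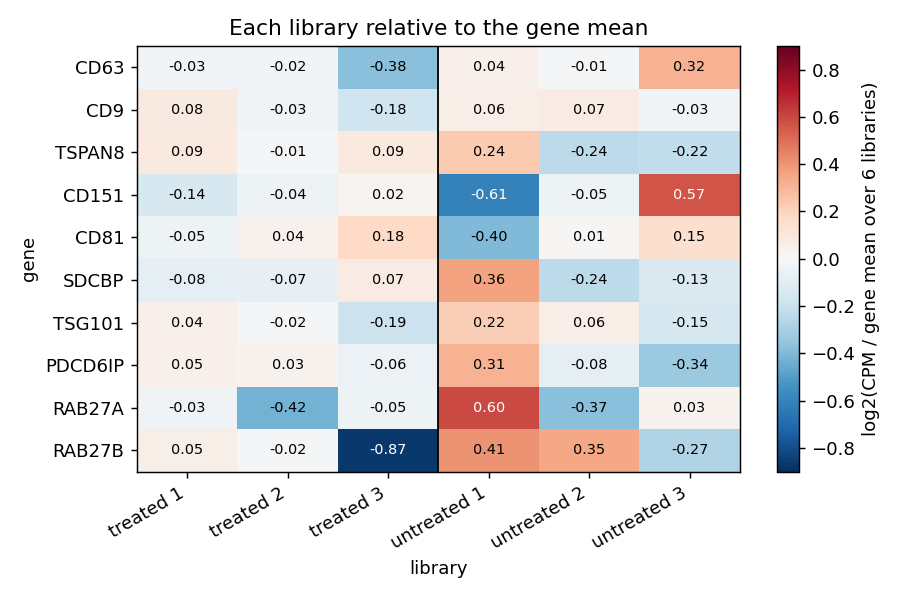
Log2 of CPM in each library (columns, M2-exo treated left of untreated) over the mean of the 6 libraries for each gene (rows). The largest departures are -0.87 for RAB27B in treated library 3, -0.61 and 0.57 for CD151 in untreated libraries 1 and 3, and 0.60 for RAB27A in untreated library 1.

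The wider vesicle machinery was read from lists of related genes, for which the same test called no gene, nor gave any an unadjusted p under 0.05. Among 12 partners of tetraspanins, such as integrins and EWI proteins, 6 estimates were above 0 and 6 below (median -0.005). The sheddase ADAM10 had 157 ± 8.46 CPM in treated and 167 ± 24.5 CPM in untreated cells, and the integrin subunit ITGA3 had 23.2 ± 5.73 CPM in treated and 25.2 ± 2.67 CPM in untreated cells (SD, n = 3 each). Of 14 genes of ESCRT-0, ESCRT-I and ESCRT-II beside TSG101, 6 were above 0 and 8 below (median -0.02). VPS25, an ESCRT-II subunit, had 81.8 ± 4.51 CPM in treated and 95.5 ± 9.68 CPM in untreated cells, and SNF8, of the same complex, had 159 ± 39.0 CPM in treated and 196 ± 28.0 CPM in untreated cells. Of 18 genes of ESCRT-III and VPS4, which cut the bud neck and recycle the complex, 6 were above 0 and 12 below (median -0.02). CHMP7 had 42.1, 38.9 and 31.4 CPM in treated cells, against 45.0, 44.1 and 43.4 CPM in untreated cells, so its groups did not overlap. UBAP1, an ESCRT-I subunit, did not overlap either, at 18.2, 18.1 and 17.2 FPKM in treated cells, against 19.6, 18.8 and 18.9 FPKM in untreated cells. Its log2 fold change was -0.10 (SE 0.14), and that of CHMP7 was -0.24 (SE 0.16). They were 1 of the 14 and 1 of the 18 genes, while treated libraries were all lower for 2.3% of all genes tested. The ATPase VPS4A had 52.7 ± 3.63 CPM in treated and 63.5 ± 17.3 CPM in untreated cells.

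The 9 genes of the syndecan and syntenin pathway beside SDCBP and PDCD6IP gave 4 estimates above 0 and 5 below (median -0.002). SDC4 was the highest of the syndecans named here at 98.2 FPKM, against 35.7 FPKM for SDC1. SDC2 had 85.8 ± 10.7 CPM in treated and 97.6 ± 17.9 CPM in untreated cells, and ARF6, a GTPase that acts with syntenin in budding, had 112 ± 10.4 CPM in treated and 123 ± 12.8 CPM in untreated cells. Of 4 sphingomyelinase genes, whose ceramide product promotes ESCRT-independent budding, 2 were above 0 and 2 below (median -0.05). SMPD3, the neutral sphingomyelinase of exosome formation, had 8.12 ± 0.846 CPM in treated and 9.39 ± 3.41 CPM in untreated cells, and SMPD4 had 253 ± 19.6 CPM in treated and 238 ± 32.8 CPM in untreated cells.

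Effectors and regulators of RAB27 numbered 12, of which 10 were tested, with 5 estimates above 0 and 5 below (median 0.04). The exchange factor MADD averaged 15.3 FPKM and the effector SYTL2 7.52 FPKM, both above RAB27A and RAB27B themselves. MYRIP and MLPH, effectors of melanosome and granule transport, had 2 to 12 and 0 to 9 counts and were not tested. SYTL4 (granuphilin), a RAB27A effector on secretory granules, had 1.69, 3.79 and 2.40 CPM in treated cells, against 1.59, 1.79 and 1.97 CPM in untreated cells, with overlapping groups. EXPH5, another effector, had 16.0, 17.5 and 17.4 CPM in treated cells, against 18.2, 15.4 and 12.2 CPM in untreated cells. Other endosomal RAB genes gave 5 estimates above 0 and 3 below (median 0.009), and RAB7A, the late endosome GTPase, stood at 143 FPKM. RAB31 had 8.23 ± 0.595 CPM in treated and 9.79 ± 2.39 CPM in untreated cells, and RAB5B had 152 ± 10.2 CPM in treated and 164 ± 10.9 CPM in untreated cells.

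The 7 SNARE genes of vesicle fusion all had estimates below 0 (median -0.10), none past the test. Of all 15084 genes tested, 7986 were below 0, and the largest change of the 7 was that of VAMP8, at -0.31 (SE 0.22). VAMP8 had 27.6, 30.7 and 34.3 CPM in treated cells, against 35.6, 29.4 and 50.1 CPM in untreated cells, and STX4 had 13.2 ± 2.37 CPM in treated and 16.1 ± 6.12 CPM in untreated cells. Of 10 genes for common exosome cargo, 2 were above 0 and 8 below (median -0.03). FLOT1, a lipid raft protein, had 110.0 ± 12.0 CPM in treated and 124 ± 15.7 CPM in untreated cells, and ANXA5 had 317 ± 20.9 CPM in treated and 347 ± 57.6 CPM in untreated cells. The chaperone HSPA8 was the highest of these named cargo genes at 529 FPKM.

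**Figure D5:**
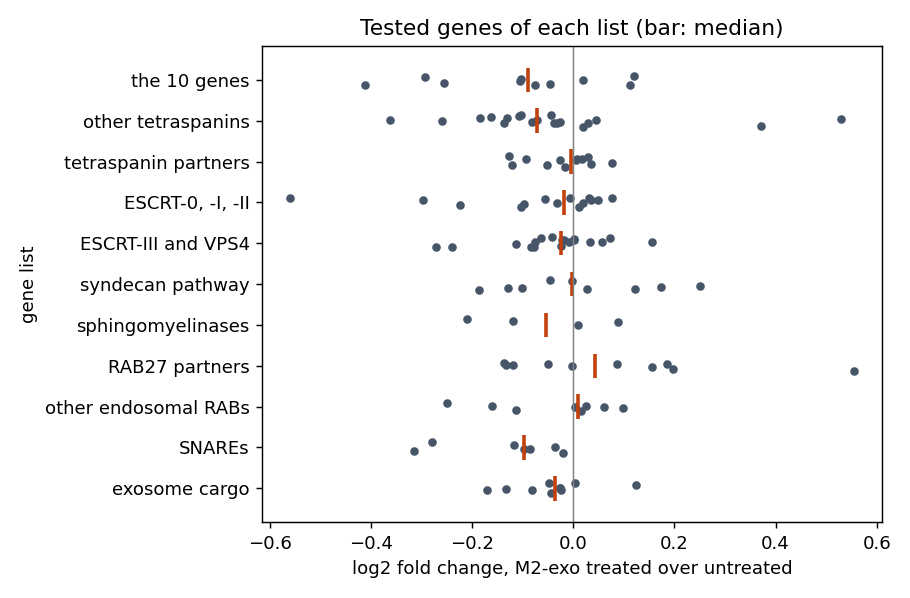
Log2 fold change, M2-exo treated over untreated (x axis), of every tested gene in the 10 genes and in each list of vesicle genes (rows; the cell type markers are not plotted), with a bar at the list's median. The medians of the plotted lists lie between -0.10 and 0.04, and no gene shown passed the test.

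Marker genes of the cell types gave the following values in the same test, and none was called. VIL1, an epithelial brush border gene, had 533 ± 11.3 CPM in treated and 589 ± 86.7 CPM in untreated cells, and CDX2, an intestinal transcription factor, had 86.9, 78.7 and 109 CPM in treated cells, against 35.3, 89.1 and 104 CPM in untreated cells. LYZ had 2.63 ± 1.25 CPM in treated and 4.12 ± 0.604 CPM in untreated cells, and CSF1R had 4.18 ± 1.60 CPM in treated and 3.43 ± 1.24 CPM in untreated cells. PDGFRA had 46.2 ± 6.54 CPM in treated and 35.7 ± 6.77 CPM in untreated cells, and COL1A1 had 27.6 ± 6.49 CPM in treated and 29.7 ± 8.47 CPM in untreated cells.

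Genes with the pattern most like that of the 3 highest genes were sought among 10371 protein-coding genes with a mean of at least 5 CPM, by Pearson's r of log2 CPM over the 6 libraries, as a description. For CD63 these were WBP4 and COX14 (both r = 0.98, Spearman's rho 0.94 and 0.83), with 33 genes above r = 0.9. For CD9 they were ZNF419 (r = 0.99, rho 0.94) and TMEM186 (r = 0.98, rho 0.94), with 78 genes above 0.9. For TSPAN8 they were GTF2H3 (r = 0.99, rho 0.94) and TFPI (r = 0.99, rho 0.89), with 215 genes above 0.9. All these values come from the same 6 libraries, which share depth and scaling, and were picked as the highest of many.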

How the data were processed

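The mRNA of 3 M2-exo treated and 3 untreated Caco-2 libraries was measured. The deposited gene table holds whole-number counts and the authors' FPKM values, that is, counts over gene length and over 1 depth constant for each library. Per the submitters' processing notes, CASAVA, HISAT2, featureCounts and GRCh38 were used, with no version or strand setting stated in the sources used here. A total of 6 columns match no sample and were not used, nor was the exosome small RNA table.

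The main test was the one of edgeR 4.0.16 (R 4.3.3) on the counts (genes kept by filterByExpr, TMM scaling, quasi-likelihood F test, 2-sided, Benjamini-Hochberg adjustment over 15084 genes, threshold 0.05). Standard errors are log2 fold change size over the root of F. Alternatives were RLE factors, total counts, other filters, DESeq2 1.42.0, limma 3.58.1 (voom, or log2 of FPKM plus a pseudocount of 1 or 0.1), the replicate block and each library left out. Library totals of 15608937 to 18324599 counts limit the precision of RAB27A and RAB27B.

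The members and the lists were chosen with earlier results of these data known. Beside the 10 genes, the text names the 2 genes of each list with the smallest unadjusted p, the most alike genes, and marker or abundant genes chosen after their values were seen. It also names genes that overlap a member and list genes of low counts, such as MYRIP and MLPH. UBAP1 was named because its treated and untreated groups did not overlap.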

Additional observations from a re-analysis of the deposited data

How the results depend on the processing

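None of the 10 genes was called under any of the 15 alternatives. Without the filter on low counts (29414 genes tested), 6 genes of the table were called; leaving out each library gave 0 to 1, the 1 without treated library 2. Of 150 log2 fold changes of the 10 genes, 7 turned sign, all with 1 library left out. Over the libraries left out, CD9 ranged from -0.12 to 0.0032, CD81 from -0.015 to 0.25, CD151 from -0.34 to 0.26, PDCD6IP from -0.10 to 0.22, SDCBP from -0.14 to 0.17, RAB27A from -0.47 to 0.0079, and, with no change of sign, TSPAN8 from 0.050 to 0.29, TSG101 from -0.18 to -0.0068 and RAB27B from -0.58 to -0.16; the cause was not tested. RAB27B was at -0.07 on log2(FPKM + 1). CD63 stayed between -0.31 and -0.13 over all 15. Whether replicate numbers pair the libraries could not be settled. Same-numbered libraries deviated together with r = 0.28, -0.06 and 0.48 for numbers 1, 2 and 3. Treated libraries 1 and 3 correlated best with the untreated library of the same number, whereas treated library 2 did so with untreated library 1 (0.07). With the replicate block, 0 genes were called (211 at an unadjusted p under 0.05, smallest adjusted p = 0.415 by edgeR) and CD63 was at -0.26. Counts of 16 to 37 for RAB27B limit what its comparison can show.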

Other observations

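Over the 6 libraries, 45 pairs of the 10 genes were compared by correlation of log2 CPM with exact permutation tests, 2-sided, and none passed after Benjamini-Hochberg adjustment over the 45. CD81 and TSG101 moved in opposite directions (r = -0.94, permutation p = 0.0028, adjusted p = 0.125, Spearman's rho = -0.94, permutation p = 0.0167), and r was -0.93 without the 2 libraries farthest from the median of CD81. TSG101 and RAB27B moved together (r = 0.91, permutation p = 0.0125, adjusted p = 0.1875, rho = 1.00, permutation p = 0.0028), with r = 0.905 without the 2 farthest libraries. CD81 and CD151 had r = 0.85 (permutation p = 0.0597, adjusted p = 0.267, rho = 0.94, permutation p = 0.0167) and r = 0.95 without the 2 farthest. CD151 and PDCD6IP had r = -0.98 (permutation p = 0.0139, adjusted p = 0.1875, rho = -0.83, permutation p = 0.0583), which was -0.66 without the 2 farthest libraries. The pairs named so far follow no ranking by p. TSPAN8 and SDCBP, for example, had r = 0.87 (permutation p = 0.0167, adjusted p = 0.1875), and CD9 and RAB27B had r = 0.93 (permutation p = 0.0222, adjusted p = 0.2). CD81 ranked the libraries as the first principal component of all tested genes did (50.1% of the variance), save that treated and untreated library 3 changed places. The share of all gene pairs with such r was not computed, so whether these values are particular to these pairs was not tested.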
